A study of Mus musculus with 6 samples.

Results

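Glycogen is the branched glucose polymer in which hepatocytes, the parenchymal cells of the liver, store glucose. The list described here holds 9 genes of its synthesis and breakdown, taken from a table of 12393 genes measured on 6 Affymetrix mouse arrays. A probe set, a group of short probes summarised to 1 value, carried the gene's symbol alone for 7 of the 9, with 13 probe sets in all. The platform annotation used here gave no such probe set for Ppp1r3b and Ppp1r3d, and both were not analysed here. The list was chosen by the difference between the genotypes, because Ppp1r3c was among the largest increases, and was filled with other genes of the pathway. Since that contrast chose the list, the members' values are given as a description, with no p-value.

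The arrays compared cultured primary hepatocytes of Alb/AEG-1 mice with those of wild-type mice, 3 arrays each. Alb/AEG-1 mice carry a transgene for the protein AEG-1, encoded by Mtdh, whose overexpression is limited to hepatocytes, per the labels. Both groups were of a mixed B6/CBA strain, received no treatment and were harvested 24 h after plating on collagen. The sources used here do not give age, sex, the number of transgenic founder lines or any pooling of animals. The replicates are labelled biological, with no word on separate animals or cultures, so the errors measure the spread between these samples, which may be technical.

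In glycogen synthesis, UDP-glucose pyrophosphorylase (Ugp2) makes the activated sugar, glycogenin (Gyg) primes the chain, glycogen synthase extends it (Gys2 is the liver form and Gys1 the form of muscle and other tissues) and the branching enzyme (Gbe1) adds branch points. Glycogen phosphorylase of liver (Pygl) releases glucose 1-phosphate. Ppp1r3c, Ppp1r3b and Ppp1r3d encode subunits that bring protein phosphatase 1 to glycogen, where it dephosphorylates and so activates glycogen synthase and inactivates phosphorylase.

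The stretches of 250 bases before the RefSeq starts of Ppp1r3c and Gyg, the members with the largest difference in each direction, are shown 5′ to 3′ on the gene's strand (assembly GRCm38.p6). Capitals mark the E-box CACGTG and the CCAAT box, which reads ATTGG where it lies on the other strand. The Ppp1r3c stretch is chr19:36736605-36736854 and the Gyg stretch is chr3:20155117-20155366, both on the minus strand.
Ppp1r3c: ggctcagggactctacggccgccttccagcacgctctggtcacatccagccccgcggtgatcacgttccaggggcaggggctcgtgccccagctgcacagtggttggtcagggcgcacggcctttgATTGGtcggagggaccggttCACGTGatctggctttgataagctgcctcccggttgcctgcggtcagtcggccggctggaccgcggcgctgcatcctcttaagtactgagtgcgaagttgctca
Gyg: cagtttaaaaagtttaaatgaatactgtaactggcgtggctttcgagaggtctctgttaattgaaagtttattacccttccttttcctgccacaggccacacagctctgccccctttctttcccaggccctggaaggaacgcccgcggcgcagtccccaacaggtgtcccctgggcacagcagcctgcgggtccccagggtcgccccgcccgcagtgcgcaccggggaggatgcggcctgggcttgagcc

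The Ppp1r3c stretch held 1 CACGTG, 104 to 99 bases before the start, and 1 CCAAT box on the opposite strand, 124 to 120 bases before it. ACGTG, the core of the hypoxia response element, matched 3 times in it, counting both strands, and 2 of these matches lie within the CACGTG. The Gyg stretch held none of the 3 motifs. Of 32851 stretches of the same length in the RefSeq promoter table, 6.0% held CACGTG, 16.6% held ACGTG and 33.8% held CCAAT on either strand. The table had entries for 7 of the 9 genes, Gys2 and Ppp1r3b not among them, and in these CACGTG was also found before Ppp1r3d. No factor's binding was measured here, and the matches describe the letters only.

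Values are log2 expression after RMA, the authors' normalisation, so 1 unit is a factor of 2, and differences are transgenic minus wild type. Probe sets bind their targets unequally, so levels are compared between arrays and not between genes. The arrays had medians from 5.61 to 5.64, and values near or under that are closer to background. In a limma fit across all 12393 genes, each represented by its brightest probe set, 15.9% were called at a Benjamini-Hochberg adjusted p of 0.05. By gene, 6.83% were called higher and 9.05% lower in transgenic cells. The brightest of the 6 Mtdh probe sets was 1.92 higher in transgenic cells, while the other 5 gave differences from -0.27 to 0.24.

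Of the 7 measured members, 3 were called, Ppp1r3c as higher and Gyg and Gys2 as lower, and 4 were not called, beside the 15.9% of all genes called. With a difference of at least 1.5-fold required as well, 1 of the 7 was called, Ppp1r3c, beside 2.89% of all genes. Ppp1r3c was chosen for the size of its increase, so its part in all these counts followed from that choice. For 4 of the 7 the ranges of the genotypes were apart, beside 34.5% of all genes. Transgenic arrays lay above in 2 of these, Ppp1r3c and Ugp2, and below in 2, Gyg and Gys2, beside 16.9% and 17.6% of all genes. The median difference over the 7 was -0.019, with a range from -0.46 to 1.89, and the median over all genes was 0.010. The list thus held 1 large increase, while the enzymes of synthesis and breakdown differed by at most 1.38-fold at their brightest probe sets.

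**Figure D1:**
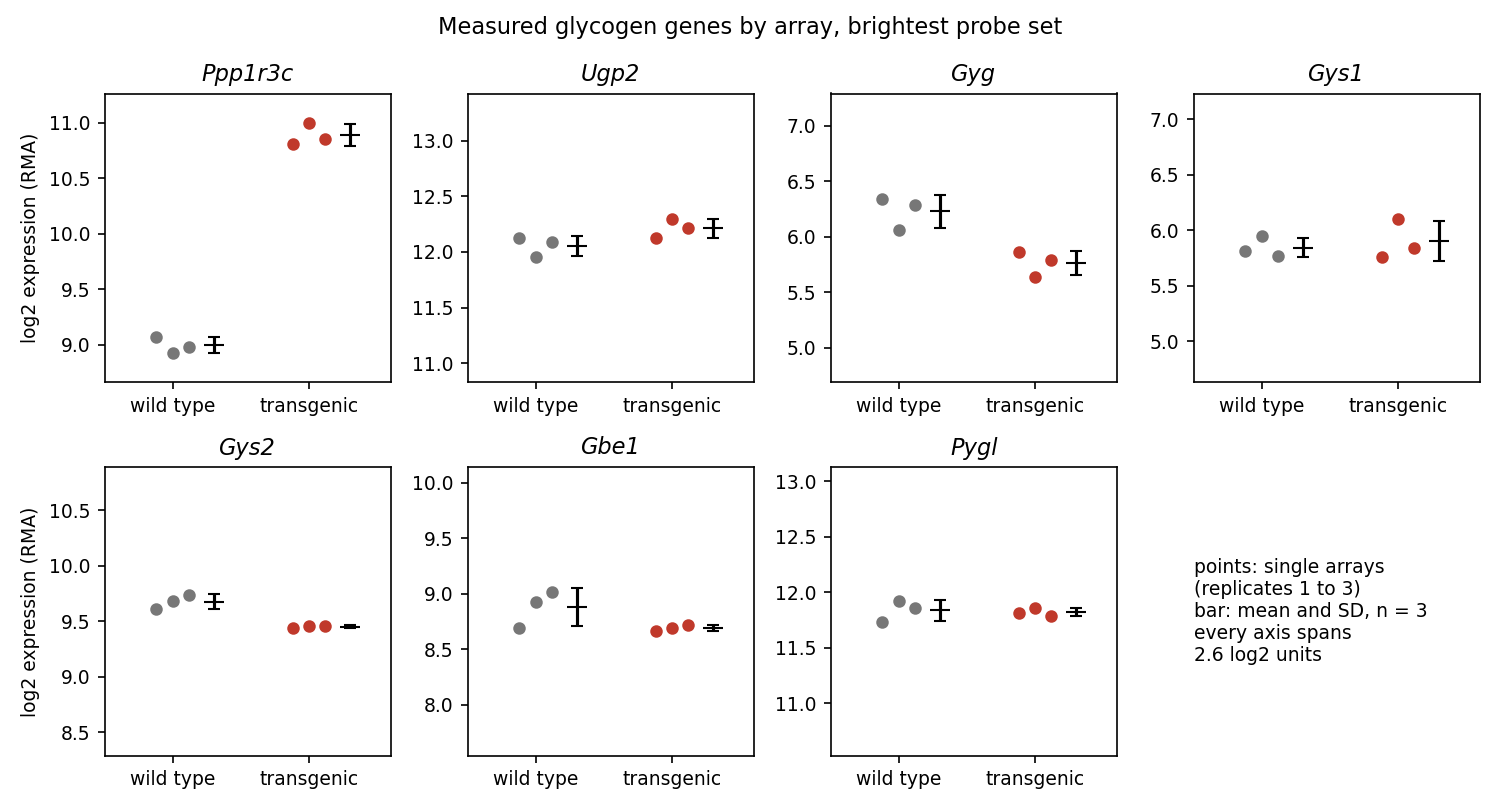
Log2 expression of the 7 measured glycogen genes at their brightest probe sets, with a point for each array, grey for wild type and red for transgenic, and the mean ± SD beside them (n = 3); every vertical axis spans the same number of log2 units. Ppp1r3c stands at 10.81 to 11.00 in transgenic against 8.93 to 9.07 in wild-type cells, and the other genes differ by less than 0.5.

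Ppp1r3c encodes the targeting subunit known as protein targeting to glycogen. At its brightest probe set, 1433691_at, the transgenic arrays read 10.81, 11.00 and 10.85 and the wild-type arrays 9.07, 8.93 and 8.98. Every transgenic array lay above every wild-type array. The means were 10.89 ± 0.10 and 8.99 ± 0.07 (SD, n = 3 each), a difference of 1.89 (SE 0.07) or 3.71-fold. It ranked as increase 10 of 12393, between Slc15a2 at 1.91 and Ccl3 at 1.89.

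The other Ppp1r3c probe set, 1425631_at, read 7.69, 7.88 and 7.64 in transgenic and 5.90, 5.95 and 5.88 in wild-type cells. It gave a difference of 1.82 (SE 0.07), or 3.54-fold, again without overlap. The probe sets thus differed in signal level but gave differences within 0.07 of each other. Neither has the suffix that marks probes able to match several transcripts. In the fits that changed the processing or left out 1 array in turn, the Ppp1r3c difference stayed between 1.84 and 1.93. It was called in 16 of 16, for a gene chosen by its size in these same arrays.

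**Figure D2:**
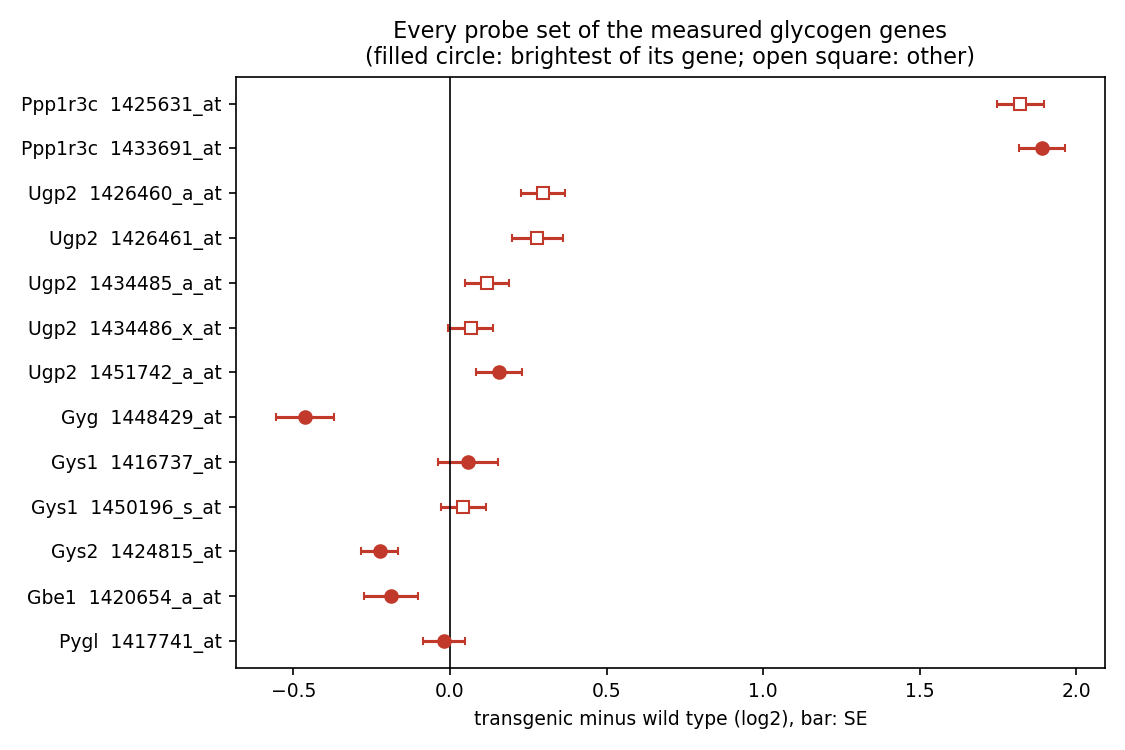
Difference in log2 expression, transgenic minus wild type, for each of the 13 probe sets of the glycogen genes, with its SE as a bar; filled circles are the brightest probe set of a gene and open squares the others. Both Ppp1r3c probe sets lie at 1.82 and 1.89, the 5 of Ugp2 between 0.066 and 0.30, and Gyg lies lowest at -0.46.

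Among the synthesis enzymes, Ugp2 was represented by 5 probe sets, all with positive differences. The brightest, 1451742_a_at, read 12.13, 12.30 and 12.21 in transgenic and 12.13, 11.96 and 12.09 in wild-type cells. Its groups met at 12.13, with the lowest transgenic array just above the highest wild-type array. The difference of 0.16 (SE 0.07) was not called, except when the variance prior followed mean expression. Probe set 1426460_a_at gave 0.30 (SE 0.07) and was called higher when every probe set was tested by itself, where 12.6% of 20380 were called. The remaining differences were 0.28 for 1426461_at, 0.12 for 1434485_a_at and 0.066 for 1434486_x_at, none of them called. The size of the Ugp2 difference therefore varied by probe set, from 1.05-fold to 1.23-fold.

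Gyg, the glycogenin gene, has 1 probe set, 1448429_at. It read 5.86, 5.64 and 5.79 in transgenic and 6.34, 6.06 and 6.29 in wild-type cells, with no overlap. The means were 5.76 ± 0.11 and 6.23 ± 0.15 (SD, n = 3 each), a difference of -0.46 (SE 0.09) or 1.38-fold lower. The call was kept in all 16 fits with other processing or 1 array left out, with differences from -0.55 to -0.40. Both group means lie close to the array median, where signal is nearer to background.

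Gys2, the liver glycogen synthase, read 9.44, 9.46 and 9.46 in transgenic and 9.61, 9.68 and 9.74 in wild-type cells. The groups did not overlap, and the transgenic arrays lay within 0.02 of each other. The difference was -0.22 (SE 0.06), or 1.17-fold lower. Its call was lost without any 1 of transgenic replicates 1, 2 and 3 or wild-type replicates 2 and 3, where the difference ranged from -0.23 to -0.19. It was kept without wild-type replicate 1, at -0.26.

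Gys1, the synthase of muscle and other tissues, read 5.76, 6.10 and 5.84 in transgenic and 5.81, 5.94 and 5.77 in wild-type cells at its brighter probe set. The groups overlapped, with a difference of 0.057 (SE 0.10), and the value was -0.043 without transgenic replicate 2. Its other probe set, under the array median, gave 0.043 (SE 0.07). Neither probe set was called, and whether Gys1 differed from Gys2 in its response was not tested.

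Gbe1, the branching enzyme, read 8.67, 8.69 and 8.72 in transgenic and 8.69, 8.93 and 9.02 in wild-type cells. Wild-type replicate 1 lay within the transgenic range and the other wild-type arrays above it. The difference of -0.19 (SE 0.09) was not called. Without wild-type replicate 1 it was -0.28 and called as lower.

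Pygl, the liver phosphorylase, was the breakdown enzyme on the list. It read 11.82, 11.86 and 11.79 in transgenic and 11.74, 11.92 and 11.86 in wild-type cells. The transgenic arrays lay inside the wild-type range, with a difference of -0.019 (SE 0.06). The value was 0.021 without wild-type replicate 2.

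**Figure D3:**
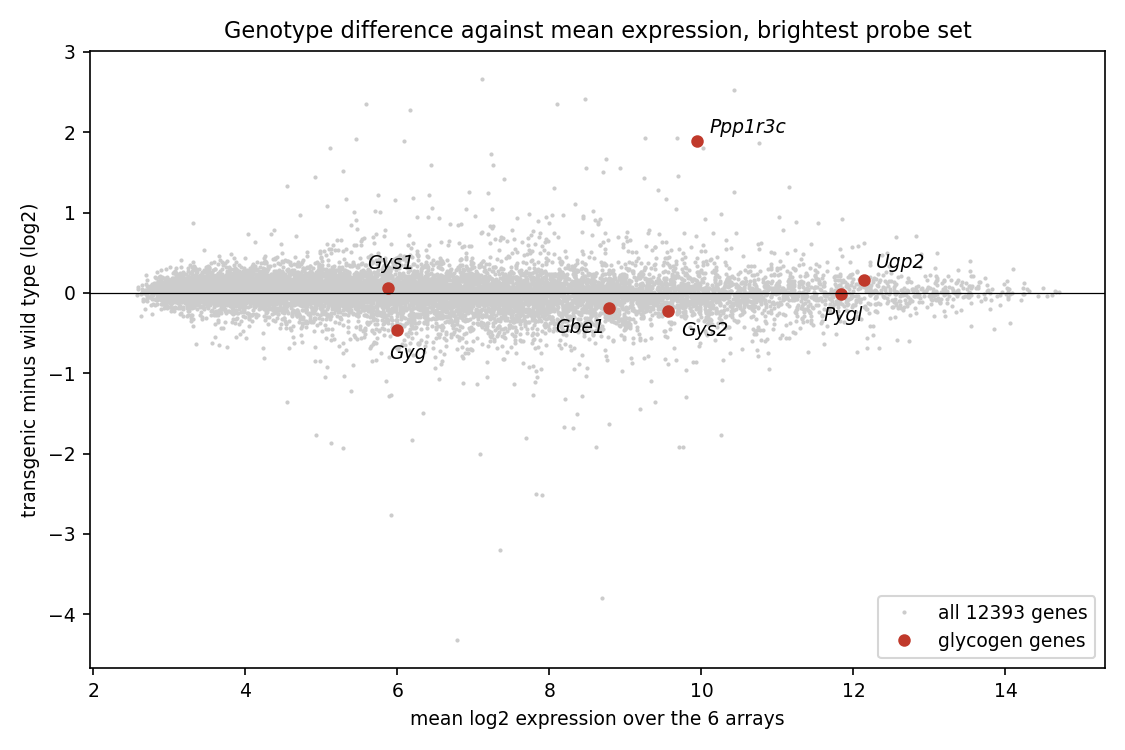
Difference in log2 expression (transgenic minus wild type, vertical axis) against mean log2 expression over the 6 arrays (horizontal axis) for 12393 genes in grey, with the 7 measured glycogen genes in red. Ppp1r3c lies at 1.89, far above the bulk of genes of like mean signal, while the others lie between -0.46 and 0.16.

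The genes whose profile over the 6 arrays was most like that of Ppp1r3c were found by the root mean square difference between profiles centred on each gene's mean. The closest was the chemokine gene Cxcl9, at 0.072 log2 units. It was followed by Serpina12, which encodes the serpin vaspin, at 0.085, and the chemokine gene Ccl3, at 0.086. Cdk5rap1, a tRNA-modifying enzyme gene, stood at 0.11 and Tmsb10, an actin-binding thymosin gene, at 0.12. Their own differences ran from 1.73 for Cdk5rap1 to 1.93 for Tmsb10, so the measure picked genes with a like genotype difference. None of them is on the glycogen lists.

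Other genes that act on glycogen or its precursors were taken from 8 lists by role, 66 genes in all, of which 51 were measured. Of these, 2 were called higher and 10 lower, which is 3.92% and 19.6% beside 6.83% and 9.05% of all genes. The lists were drawn up with earlier results of these data known, so these shares are a description. The median difference was -0.045, against 0.010 over all genes. The number called was 7 without transgenic replicate 1, without transgenic replicate 2 or without wild-type replicate 3. Values below are for the brightest probe set, with limma p-values adjusted by Benjamini-Hochberg over all 12393 genes.

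**Figure D4:**
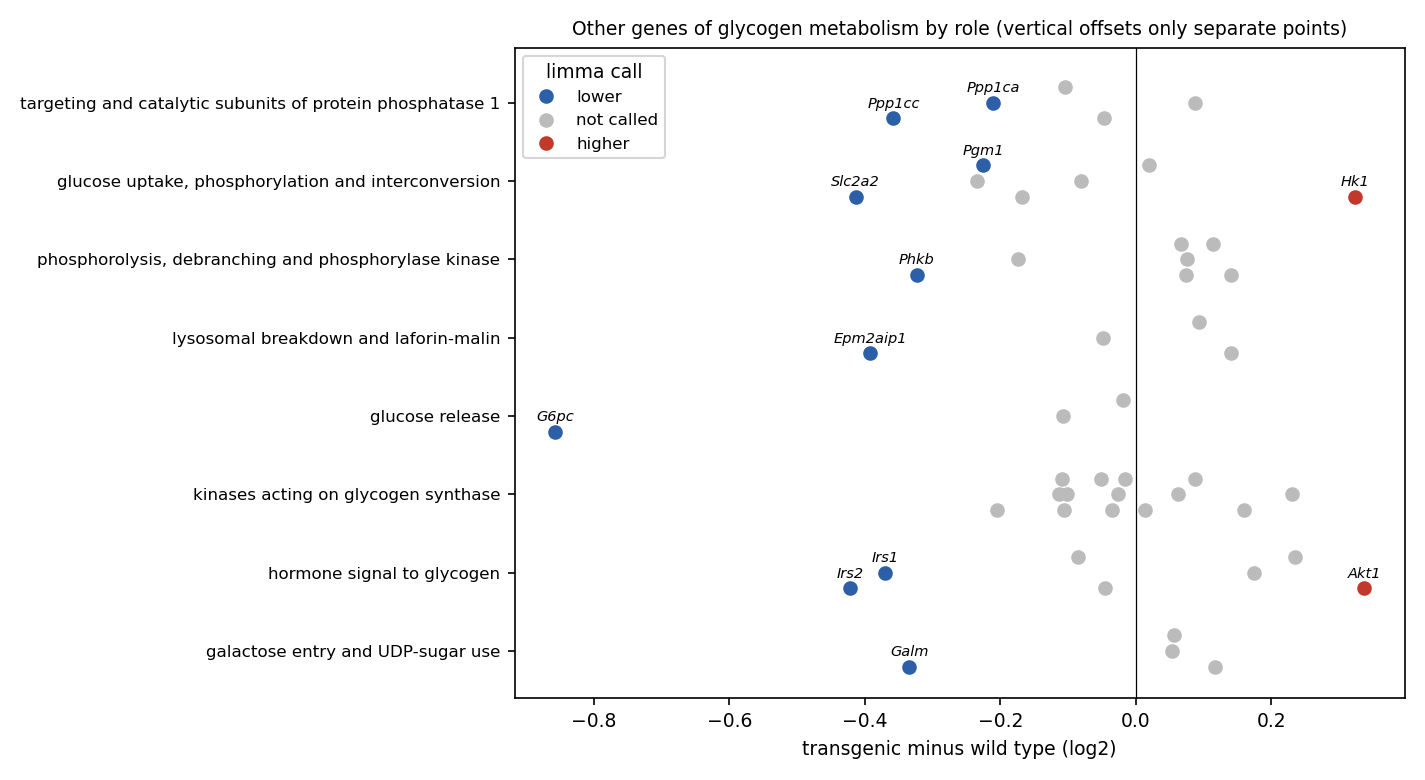
Differences in log2 expression, transgenic minus wild type, for the 51 measured other genes of glycogen metabolism in 8 roles, with a point for each gene, coloured by its limma call (blue lower, red higher, grey not called). G6pc lies lowest at -0.86, and Hk1 and Akt1 are the genes called higher, at 0.32 and 0.34.

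Ppp1r3c acts through the catalytic subunits of protein phosphatase 1, and 2 of the 3 catalytic subunit genes were lower. Ppp1cc read 10.29 ± 0.03 in transgenic against 10.65 ± 0.01 in wild-type cells (SD, n = 3), and so fell by 0.36 (SE 0.05, limma adjusted p = 0.00271). The other Ppp1cc probe set gave -0.14 and was not called. Ppp1ca fell by 0.21 (SE 0.05, limma adjusted p = 0.0294), a call lost without any 1 of the 6 arrays. Ppp1cb gave -0.10 and was not called. Of the other targeting subunits, the muscle form Ppp1r3a, at 3.33 against 3.37, and Ppp1r3f, at 7.02 against 6.93, were not called. No measured gene of this list was called higher (0 by limma, and 0 at an unadjusted p under 0.05).

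At the entry and exit of glucose, the largest decrease was that of G6pc, the glucose-6-phosphatase that lets glucose leave the hepatocyte. It read 9.51 ± 0.07 in transgenic against 10.36 ± 0.10 in wild-type cells (SD, n = 3). The difference was -0.86 (SE 0.07, limma adjusted p = 0.000164), or 1.81-fold lower. Its transporter partner Slc37a4 gave -0.11 and the ubiquitous phosphatase gene G6pc3 gave -0.019, neither called. Slc2a2, the hepatocyte glucose transporter, fell by 0.41 (SE 0.06, limma adjusted p = 0.00267). The phosphoglucomutase listed as Pgm1 fell by 0.23 (SE 0.06, limma adjusted p = 0.0380), a call kept in 7 of 16 fits. The fits that lost it include those without any 1 of the 6 arrays, after quantile normalization and with every probe set tested by itself. The hexokinase gene Hk1 rose by 0.32 (SE 0.08, limma adjusted p = 0.0379). That call was lost with the mean of both probe sets and without transgenic replicates 1, 2 or 3 or wild-type replicates 2 or 3, and the other Hk1 probe set gave -0.10. In that list of 7 measured uptake and phosphorylation genes 1 rose, 2 fell and 4 were not called.

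Among 7 measured genes of phosphorolysis and phosphorylase kinase, the kinase that activates phosphorylase, Phkb was the gene that passed. Phkb, the beta subunit, fell by 0.32 (SE 0.06, limma adjusted p = 0.0110). The other subunit genes were not called and went both ways, with -0.17 for Phka2, 0.11 for Phka1, 0.074 for Phkg2 and 0.067 for Phkg1, and the median of this list was 0.074. The genotypes did not overlap for Phka2, where transgenic arrays lay below, or for Phka1, where they lay above. Of all genes, 17.6% lay below and 16.9% above without overlap. The brain and muscle phosphorylase genes Pygb and Pygm were not called, with 0.14 and 0.076. Of 4 measured genes of lysosomal breakdown and of laforin and malin, Epm2aip1, whose product binds laforin, fell by 0.39 (SE 0.10, limma adjusted p = 0.0330). Its levels of 4.10 and 4.49 lie under the array median, and the call was lost without transgenic replicates 1 or 2 or wild-type replicates 1 or 3. Gaa, the lysosomal glucosidase that degrades glycogen, gave -0.048 and was not called.

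None of 14 measured genes for kinases that act on glycogen synthase, regulatory subunits included, passed (0 by limma, and 2 at an unadjusted p under 0.05). Among them were Gsk3a at -0.035 and Gsk3b at -0.20. The kinase genes Prkaa1 and Prkaa2 were listed but not measured. In the list of hormone signals, 1 of 7 measured genes rose and 2 fell, beside 6.83% and 9.05% of all genes. At an unadjusted limma p under 0.05, 3 were higher and 2 lower. The insulin receptor substrate genes were lower. Irs1 fell by 0.37 (SE 0.07, limma adjusted p = 0.0113) and Irs2 fell by 0.42 (SE 0.11, limma adjusted p = 0.0369). The Irs2 call was lost without transgenic replicates 1, 2 or 3 or wild-type replicates 2 or 3. The kinase gene Akt1 rose by 0.34 (SE 0.05, limma adjusted p = 0.00389), with its other probe set at 0.18 and not called. The insulin receptor gene Insr gave 0.24 and the kinase gene Akt2 gave 0.18, neither called. For both, transgenic arrays lay above without overlap, beside 16.9% of all genes. The glucagon receptor gene Gcgr gave -0.045 and the adrenergic receptor gene Adra1b gave -0.086, neither called. Of 4 measured genes of galactose entry and UDP-sugar use, the mutarotase gene Galm fell by 0.33 (SE 0.06, limma adjusted p = 0.00876). The other Galm probe sets gave -0.12 each, and the call was lost with the mean of all 3 and without probe sets able to match several transcripts.

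Marker genes were read beside these values, since cultures of hepatocytes can hold other liver cells. All 11 measured hepatocyte markers were above the array median, from 11.34 for Tat to 14.70 for Alb, and 1, Ahsg, was called higher, by 0.21. In the list of macrophages and Kupffer cells, 3 of 12 markers passed as higher, beside 6.83% of all genes. These were Ptprc by 0.61 (limma adjusted p = 0.00114), Marco by 0.69 and C1qc by 0.35. Ptprc and Marco lay under the array median, at means of 5.08 and 5.56 over the 6 arrays. The other 9 markers were not called. They ran from Csf1r at -0.10, Cd5l at 0.019 and Clec4f at 0.064 to C1qa at 0.20, Cd68 at 0.22 and C1qb at 0.30. At an unadjusted limma p under 0.05, 6 of the 12 were higher and 0 lower. The ranges of the genotypes were apart for 8 of the 12, beside 34.5% of all genes. The median difference of this list was 0.18. The log2 of the summed signal of the 12 was 10.55 to 10.59 in transgenic and 10.35 to 10.50 in wild-type arrays. Sinusoidal endothelial markers were called higher for 2 of 9, Clec4g by 0.50 and Kdr by 0.41, beside the same 6.83%. The summed levels were 9.54 to 9.63 against 9.24 to 9.38. The other 7 were not called, among them Stab1 at -0.048, Cdh5 at -0.11 and Lyve1 at 0.22. The median difference here was 0.14, and 3 of the 9 lay under the array median. Stellate cell markers had 0 of 9 called by limma (3 at an unadjusted p under 0.05), with summed levels of 8.67 to 8.72 against 8.52 to 8.56. Of these 9, 6 lay under the array median. Of 5 cholangiocyte markers Epcam was called higher, by 1.52, with summed levels of 8.36 to 8.44 against 8.15 to 8.21. All but Sox9 lay under the array median, 4 of the 5, with Epcam at a mean of 5.29 over the 6 arrays. The other cholangiocyte markers were not called, with -0.016 for Sox9, -0.027 for Krt7, 0.051 for Cftr and 0.36 for Krt19. All 9 striated muscle markers lay under the array median and 0 were called (0 at an unadjusted p under 0.05), with summed levels of 7.70 to 7.78 against 7.62 to 7.68. Adipocyte markers had 0 of 4 called (1 at an unadjusted p under 0.05), with summed levels of 9.64 to 9.70 against 9.75 to 9.86. Of the 4, 3 lay under the array median, Adipoq, Lep and Retn, with differences of 0.11, 0.095 and 0.060. Fabp4 lay above it, at 9.54 in transgenic against 9.69 in wild-type cells, and made up most of the sum. The part of other cells in the Ppp1r3c difference was not tested, and in bulk samples fewer cells of a type and less RNA per cell cannot be told apart.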

How the data were processed

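Hepatocyte RNA was hybridised to 6 arrays as biotinylated cRNA, per the labels' protocols. Per the submitters' processing notes, the authors used RMA and Affymetrix Expression Console (no version named), and what they deposited is a log2 value per probe set. RMA equalises distributions between arrays, so values are relative to the other genes. The number of arrays limits the precision.

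Of 22690 probe sets, 20380 carried 1 symbol, 691 several, 1555 none, and 64 were controls. The probe set of highest mean stood for its gene. Identifiers of 12369 of 12393 genes matched the RefSeq table. Differences were tested with limma 3.58.1 (lmFit, eBayes) in R 4.3.3, checked on simulated data, with Benjamini-Hochberg adjustment over all genes, threshold 0.05. All tests are two-sided.

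Members and lists were chosen with earlier results of these data known. The naming rule took all members, up to 4 called genes by smallest p of each other list, up to 3 of each marker list and the 5 profiles nearest Ppp1r3c. Genes of these lists that are named without a call were chosen after their values were seen. Alternatives covered probe set choice, dim genes, scaling, variance prior, array weights, arrays left out, a replicate block and thresholds.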

Additional observations from a re-analysis of the deposited data

How the results depend on the processing

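The count of 3 members called was between 2 and 4 without 1 array, and 1 at an adjusted p of 0.01 or with at least 1.5-fold required. There Ppp1r3c alone remained, the gene the list was chosen for. The count of 12 other pathway genes was between 7 and 10 without 1 array, 5 at an adjusted p of 0.01 and 1 with 1.5-fold required. The count of 1967 genes in all was between 1267, without transgenic replicate 1, and 1700 without 1 array, 918 at 0.01 and 358 with 1.5-fold required. Without 1 array in turn the Gys1 difference ran from -0.043, without transgenic replicate 2, to 0.13 and the Pygl difference from -0.071 to 0.021, without wild-type replicate 2. None of these was called, and the cause was not tested. Whether same-numbered arrays were handled together is not given by the sources used here. Their deviations gave correlations from -0.010 to 0.10, and 2 of 6 arrays matched their own number best. With 3 arrays in each genotype these values cannot show or exclude a pairing. With the replicate number as a block, 2 members, 8 other pathway genes and 1505 genes in all were called, and the calls of Gys2, Ppp1ca, Hk1, Pgm1 and Irs2 were lost. Gbe1 had no value without probe sets able to match several transcripts.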
